A study of Mus musculus with 12 samples.

Results

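The 8 genes Tesc, Prom1, Stk26, Aqp5, Mgp, Vcan, Ecrg4 and Pla2g7 were chosen by their signals in mammary tumors of WAP-SVT/t mice, which were among those that most exceeded the signals of lactating glands. They were taken from 12393 genes named on the arrays and were read by 12 probe sets. The tumor signals that chose them are described here and not tested. What remained to be measured was which tumor-derived cell lines kept the high signals, and how the genes stood in glands with and without the transgene.

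RNA was measured on 12 single-color oligonucleotide arrays. Of the 3 breast cancer cell lines, ME-A has no further label, ME-B is labelled a revertant, and retransformed cells are named ME-B-T/t. Each line had 1 array, and the labels give neither its passage nor whether it is a clone. The 3 tumors were breast cancers of WAP-SVT/t mice, females of the NMRI strain that make the simian virus 40 large T and small t antigens in their mammary epithelial cells. The 3 transgenic glands came from WAP-SVT/t females and the 3 NMRI glands from females without the transgene, and all 6 glands were collected as lactation began. The ages of the animals are not given. The tumor-bearing animals and the transgenic glands thus shared the transgene, while only the glands were labelled as lactating.

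The Wap promoter is active in milk-producing cells late in pregnancy and in lactation, so that transgenes placed under it are switched on with milk production. Large T antigen binds the p53 and RB proteins and small t antigen binds protein phosphatase 2A. Several of the 8 genes are known from other epithelia or from connective tissue: Tesc and Stk26 encode proteins of the cell's interior, Prom1 and Aqp5 proteins of the epithelial cell surface, and Mgp, Vcan, Ecrg4 and Pla2g7 secreted proteins, of which Mgp and Vcan belong to the extracellular matrix.

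Signals are in intensity units after each array was brought to a common trimmed mean, and are given as mean ± SD over n = 3 arrays for tumors and glands and singly for each line. Signals under 57.5 were treated as a floor in all ratios and differences, since values below it have no order. Signals of different probe sets were not set against each other. The labels do not say that each gland array came from a mouse of its own, so p values measure the spread between these samples only.

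Several arrays stood apart. Salivary gland markers, 9 of 13 with a probe set, summed to 19086 in tumor 2, against 229 in tumor 1 and 512 in tumor 3. They summed to 148 to 228 in the lines, 441 to 1487 in transgenic glands and 729 to 801 in NMRI glands. Bpifa2, Amy1, Cst10 and Klk1 carried most of that signal, with 7906, 6021, 2192 and 1870 in tumor 2. Dcpp1 of the same list had 651 in tumor 2 and 327 in tumor 3, and lay below the floor on all other arrays. Tumor 1 stood apart from the other tumors, with summed skeletal muscle markers of 13722 and adipocyte markers of 13301. Tumor 2 had 675 and 1835, and tumor 3 had 456 and 1896. Muscle sums were 1371 to 24923 in transgenic glands and 11936 to 24968 in NMRI glands. Adipocyte sums were 27188 to 48996 in transgenic glands and 28631 to 35967 in NMRI glands. The ratio of 3-prime to 5-prime Gapdh control signals, which grows with RNA degradation, lay between 0.753 and 0.949 in the lines. Tumors 1 to 3 had ratios of 5.63, 0.982 and 0.969. The transgenic glands, numbered 1 to 3, had 10.7, 2.49 and 22.5, and the NMRI glands 12.9, 2.28 and 40.3. In the tumors and all 6 glands the keratin gene Krt8 was at least 3252 and Epcam, an epithelial adhesion molecule, at least 4468. ME-A had 3749 for Krt8 and 5308 for Epcam. ME-B and ME-B-T/t had 199 and 107 for Krt8, and both were below the floor for Epcam. Some other luminal markers differed from this order. Krt19 had 1489, 1619 and 106 in tumors, 3149 in ME-A, 931 in ME-B and 108 in ME-B-T/t. Gata3 had 656, 405 and 432 in tumors, 548 in ME-A, 533 in ME-B and 740 in ME-B-T/t.

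**Figure D1:**
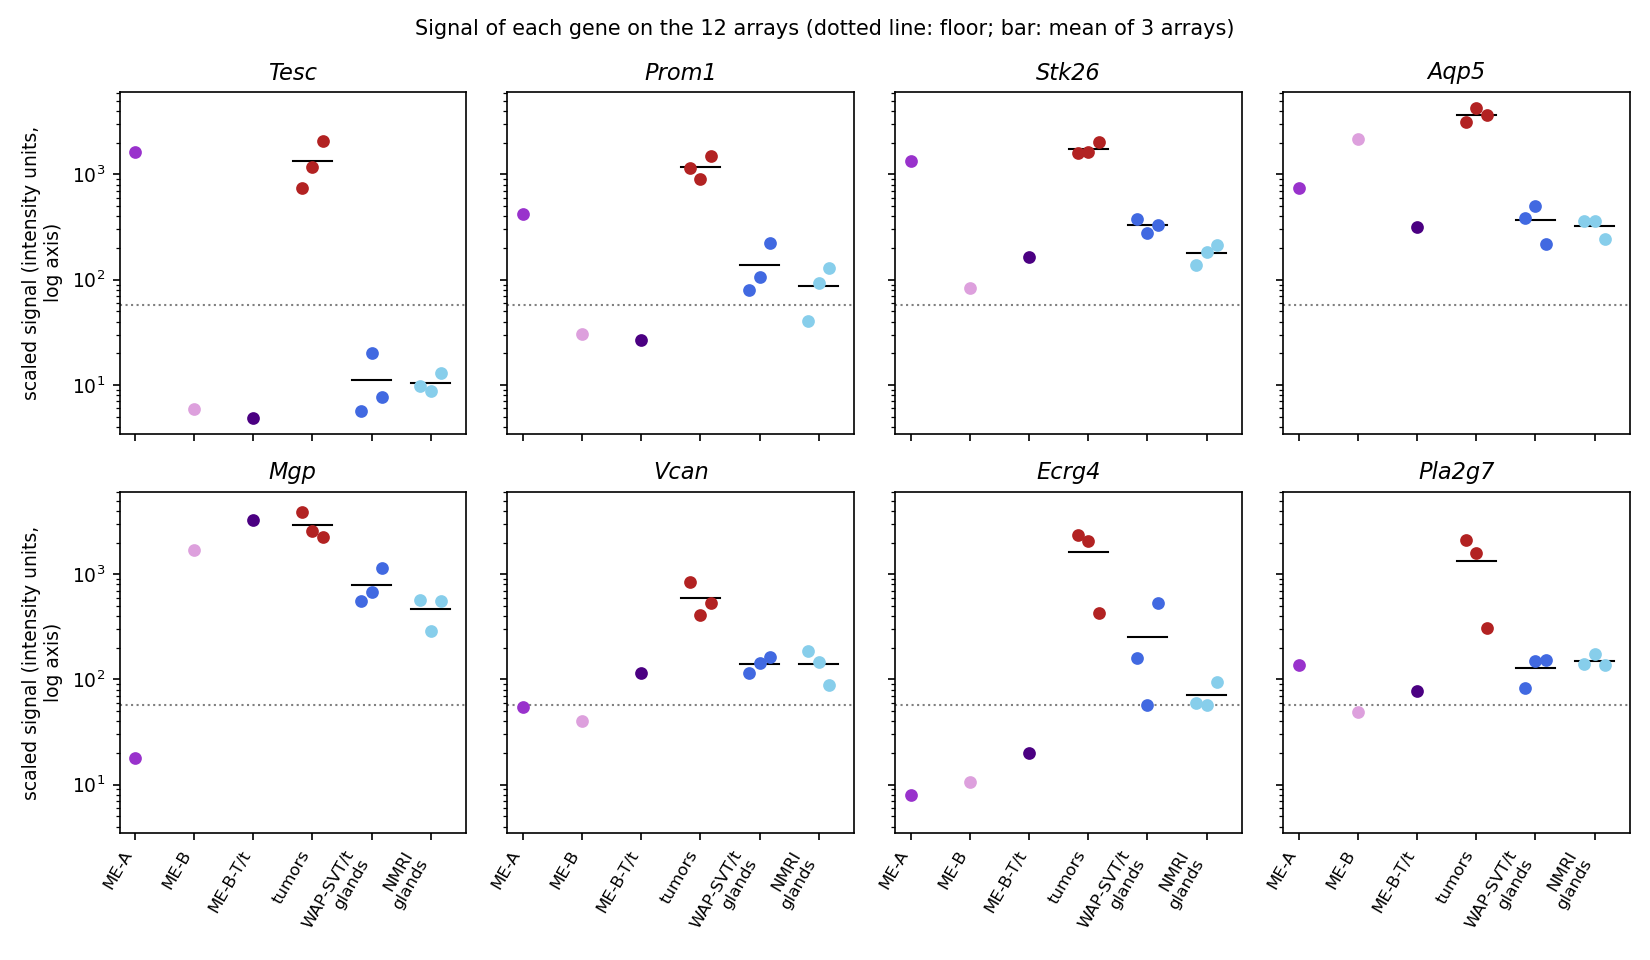
Scaled signal in intensity units, on a log axis, of each of the 8 genes on all 12 arrays, with lines as single points, and tumors, WAP-SVT/t glands and NMRI glands as 3 points with a bar at their mean; the dotted line is the floor of 57.5. Tesc, Prom1 and Stk26 are high in ME-A and in tumors, Mgp is high in ME-B, ME-B-T/t and tumors, and Vcan, Ecrg4 and Pla2g7 are low in all 3 lines.

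The genes differed in their pattern across the lines. A line was said to keep a gene when its signal lay above all 6 glands, and to hold it at tumor level when the signal also reached the lowest tumor. ME-A kept 4 of the 8 genes, namely Tesc, Prom1, Stk26 and Aqp5. ME-B kept Aqp5 and Mgp, whereas Mgp alone was kept by ME-B-T/t. Pla2g7, Ecrg4 and Vcan were kept by no line. As background, 23.6% of 8187 genes measured lay above all 6 glands in ME-A, 24.7% in ME-B and 25.4% in ME-B-T/t. Among the 83 other genes called higher in tumors than in both gland groups, 54 (65.1%) were kept by ME-A, 44 (53.0%) by ME-B and 52 (62.7%) by ME-B-T/t. With 8 genes chosen for their tumor signals, the counts of 4, 2 and 1 describe these genes only. Tumor level was reached by Tesc in ME-A and by Mgp in ME-B-T/t, and by none of the 8 in ME-B. Of all genes measured, 71.3% reached it in ME-A, 65.9% in ME-B and 66.5% in ME-B-T/t. Of the 83 other genes, 37 (44.6%) reached it in ME-A, 22 (26.5%) in ME-B and 30 (36.1%) in ME-B-T/t. These counts of the 8 genes were the same or nearly the same under 5 other ways of scaling, setting a floor or joining probe sets.

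**Figure D2:**
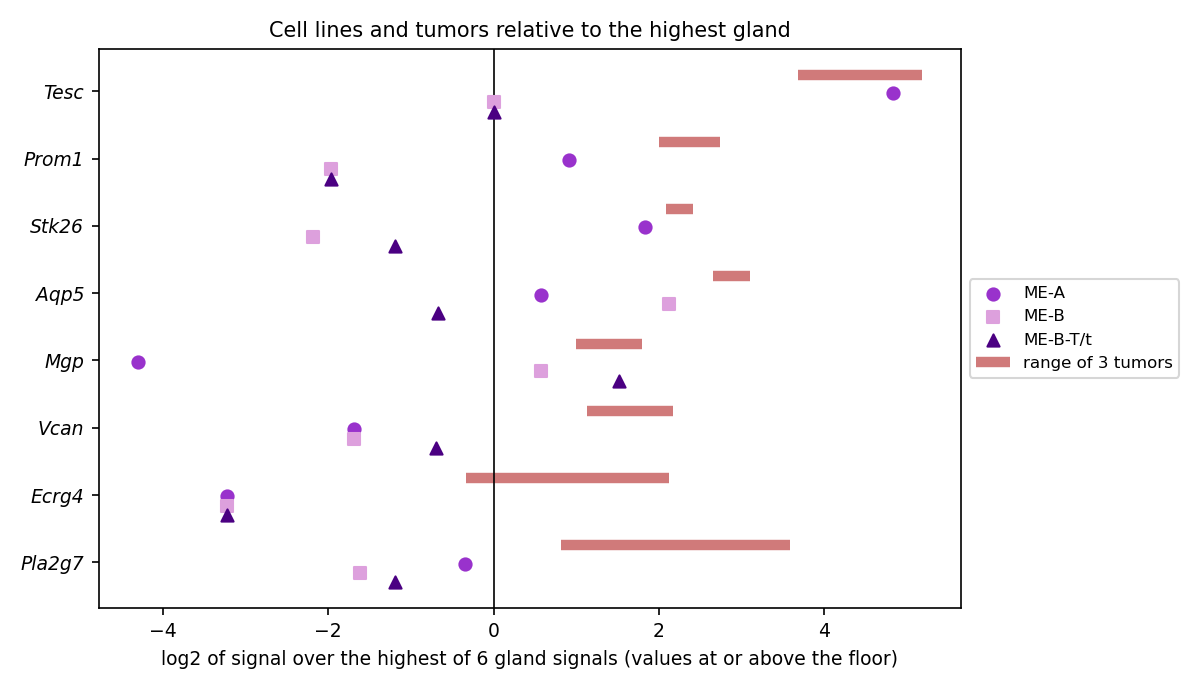
Log2 of the signal over the highest of the 6 gland signals for each line (symbols) and for the range of the 3 tumors (bars), all values at or above the floor. Points right of the vertical line are above every gland: ME-A for Tesc, Prom1, Stk26 and Aqp5, ME-B for Aqp5 and Mgp, and ME-B-T/t for Mgp.

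Tesc was the sharpest of the genes kept by ME-A. It encodes tescalcin, a calcium-binding protein with EF hands. ME-A had a signal of 1642, while ME-B and ME-B-T/t had 5.84 and 4.83. The tumors had 740, 1184 and 2092. In transgenic glands the values were 5.61, 20.2 and 7.72, and in NMRI glands 9.66, 8.66 and 12.9. ME-A thus lay within the tumor range, and the other lines and all 6 glands were below the floor and cannot be ordered. The signal of ME-A was at least 28.6-fold higher than in either other line. Tumors, at 1338 ± 689, were at least 21.3-fold higher than transgenic glands (11.2 ± 7.89) and at least 21.3-fold higher than NMRI glands (10.4 ± 2.21). Tesc passed the filter on low signals only through the tumors. Its name carries the mark that the array's maker gives to probe sets that may match several transcripts. The other Tesc probe set had 457 in ME-A, 259, 324 and 610 in tumors and was below the floor on the remaining 8 arrays, so it gave the same order.

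Prom1 encodes prominin (CD133), a cholesterol-binding glycoprotein of membrane protrusions that marks subsets of luminal mammary cells. ME-A had 422, against 30.6 in ME-B and 26.7 in ME-B-T/t, both below the floor. The 3 tumors had 1150, 898 and 1503. Transgenic glands had 80.5, 107 and 224, and NMRI glands 40.2, 92.5 and 128. ME-A stood between glands and tumors, 1.89-fold above the highest gland and at 35.7% of the tumor mean. Tumors averaged 1184 ± 304, against 137 ± 76.4 in transgenic glands and 86.9 ± 44.1 in NMRI glands, and the gland groups overlapped.

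Stk26 encodes a Ste20-like kinase of the GCKIII group that acts at the Golgi apparatus and in cell polarity, and in a complex with the scaffold Pdcd10. ME-A had 1347, ME-B 83.3 and ME-B-T/t 166. Tumors had 1611, 1623 and 2023, a mean of 1752 ± 235. With each gene read by its brightest probe set, this was the narrowest spread of the 8 genes. ME-A reached 76.9% of that mean and was 3.55-fold above the highest gland, but below the lowest tumor. It was 16.2-fold above ME-B and 8.14-fold above ME-B-T/t. The other Stk26 probe set had 276 in ME-A, 47.2 in ME-B and 57.3 in ME-B-T/t. It had 298, 378 and 570 in tumors, a wider spread of 1.91-fold from lowest to highest.

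Aqp5 was kept by ME-B more than by ME-A. It encodes an apical water channel of secretory epithelia, among them salivary and lacrimal acini and the lung's alveolar lining. ME-A had 749, ME-B 2182 and ME-B-T/t 314. Tumor signals were 3162, 4325 and 3643, a mean of 3710 ± 584. Transgenic glands had 384, 501 and 216, and NMRI glands 363, 362 and 245. ME-B reached 58.8% and ME-A 20.2% of the tumor mean, and ME-B-T/t lay inside the range of the glands. Aqp5 in ME-B was 2.91-fold above ME-A and 6.95-fold above ME-B-T/t. Tumor 2, with its salivary gland markers, had the highest Aqp5 of the tumors. Without that tumor the log2 difference from transgenic glands was 3.29, against 3.41 with it, and tumors 1 and 3 were each above all 6 glands. Such tumor values chose the gene, and tumor 3 also had signal for the salivary marker Dcpp1. The part of salivary tissue in the Aqp5 signal was not tested.

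ME-A was the highest line for Tesc, Prom1 and Stk26 and for the sum of the luminal markers, whereas ME-B was the highest for Aqp5. Of 16 luminal markers 15 had a probe set, and they summed to 30658 in ME-A, 2543 in ME-B and 1934 in ME-B-T/t. Their sums were 23955 to 32205 in tumors, 26806 to 32065 in transgenic glands and 25224 to 41487 in NMRI glands. The sums of glands and tumors thus overlapped. No gland reached the lowest tumor for Tesc, Prom1, Stk26 or Aqp5. These genes were chosen for high tumor signals, so nothing can be read from setting them against the sums. Pgr was below the floor in all lines, tumors and transgenic glands. The part of the epithelial state of ME-A in its signals was not tested. In a bulk sample, fewer cells of a type and less RNA per cell cannot be told apart.

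The start regions of the 4 genes kept by ME-A are shown because these genes lay above all 6 glands both in ME-A and in the tumors, although Aqp5 in ME-A was far below the tumors. Sequences are RefSeq's on GRCm38.p6, from 250 bases before to 50 after each start, written 5′ to 3′ on the gene's strand. Capitals mark matches, on either strand, to the GC box (GGGCGG), the CCAAT box (CCAAT), the TATA box (TATAAA), an AP-1 motif (TGANTCA) or an E-box (CACGTG).
Tesc, chr5:118027493-118027792, plus strand: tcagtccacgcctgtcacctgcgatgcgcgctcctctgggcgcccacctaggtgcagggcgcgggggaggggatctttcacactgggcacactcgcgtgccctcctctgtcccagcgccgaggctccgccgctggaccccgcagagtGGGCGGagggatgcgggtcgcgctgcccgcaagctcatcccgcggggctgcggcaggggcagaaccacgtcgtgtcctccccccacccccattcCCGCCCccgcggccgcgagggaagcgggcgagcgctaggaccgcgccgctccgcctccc
Prom1, chr5:44101687-44101986, minus strand: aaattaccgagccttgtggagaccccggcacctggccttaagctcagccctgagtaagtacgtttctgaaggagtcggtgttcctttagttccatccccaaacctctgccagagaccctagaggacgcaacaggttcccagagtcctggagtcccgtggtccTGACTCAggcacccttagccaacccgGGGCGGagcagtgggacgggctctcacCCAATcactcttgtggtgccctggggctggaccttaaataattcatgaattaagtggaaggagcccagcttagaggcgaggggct
Stk26, chrX:50841121-50841420, plus strand: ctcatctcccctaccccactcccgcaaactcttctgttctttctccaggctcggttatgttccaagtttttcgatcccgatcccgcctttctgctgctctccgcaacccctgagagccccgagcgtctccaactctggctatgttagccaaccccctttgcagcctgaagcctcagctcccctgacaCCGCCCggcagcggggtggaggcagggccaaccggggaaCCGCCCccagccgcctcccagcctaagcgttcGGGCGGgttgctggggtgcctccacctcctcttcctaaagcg
Aqp5, chr15:99590778-99591077, plus strand: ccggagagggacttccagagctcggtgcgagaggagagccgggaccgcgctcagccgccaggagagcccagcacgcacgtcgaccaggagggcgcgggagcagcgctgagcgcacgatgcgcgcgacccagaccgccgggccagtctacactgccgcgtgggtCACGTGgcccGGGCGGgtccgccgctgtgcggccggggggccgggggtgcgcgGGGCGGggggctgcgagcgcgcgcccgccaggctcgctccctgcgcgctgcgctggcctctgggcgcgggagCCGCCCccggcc

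All 4 sequences held the GC box, which stood in 35.7% of 32851 promoters of this length. Tesc had 2 matches, Stk26 and Aqp5 had 3 each and Prom1 had 1. Aqp5 also held the E-box (7.15% of all promoters), and Prom1 the CCAAT box (37.4%) and the AP-1 motif (7.81%). None held the TATA box, which was found in 13.6%. No match of one motif overlapped that of another. Base composition differed within the set: G and C made up 79.7% of the Aqp5 and 74.7% of the Tesc sequence, with 98.8% and 95.8% of all promoters lower. They made up 63.3% in Stk26 and 57.0% in Prom1, against a median of 52.7%. Over all 8 genes, 7 matched the table with 8 promoters, Prom1 having a second one, and Mgp had no entry. The GC box was in 6 of those 8 promoters, the CCAAT box in 2, the AP-1 motif in 2, both of Prom1, and the E-box in 1. A match describes the letters and does not show that a factor binds there.

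Mgp had the opposite pattern to Tesc. It encodes matrix Gla protein, a vitamin K-dependent inhibitor of tissue calcification made by cartilage, vascular muscle and fibroblasts. ME-A had 17.9, below the floor, while ME-B had 1694 and ME-B-T/t 3262. Tumors had 3937, 2599 and 2276, transgenic glands 552, 683 and 1136, and NMRI glands 571, 287 and 553. ME-B-T/t lay within the tumor range, at 111% of the tumor mean, and ME-B lay between the tumors and the highest gland. Compared with ME-A, Mgp was at least 29.5-fold higher in ME-B and at least 56.8-fold higher in ME-B-T/t. Tumors averaged 2938 ± 881, transgenic glands 790 ± 306 and NMRI glands 471 ± 159. All 15 fibroblast and matrix markers had a probe set. The lines had the same order in their summed signal, with 9111 in ME-A, 18562 in ME-B and 37455 in ME-B-T/t. Tumors 1 to 3 had sums of 36918, 16375 and 15611. The range was 22243 to 36157 in transgenic glands and 16302 to 25250 in NMRI glands. Dcn and Fap, which define stromal fibroblasts, were below the floor in all 3 lines. Pdgfrb, Col6a1, Col5a1 and Loxl1 of the same list were higher in ME-B and ME-B-T/t than in any tumor. Pdgfrb, a growth factor receptor of mesenchymal cells, had 2.69 in ME-A, 1144 in ME-B and 1570 in ME-B-T/t, and 314, 227 and 186 in tumors. The part of such cells in the Mgp signal was not tested.

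Vcan, Ecrg4 and Pla2g7 were high in tumors and in no line. Vcan encodes versican, a large chondroitin sulfate proteoglycan that binds hyaluronan in loose matrix. ME-A had 55.3, ME-B 40.3 and ME-B-T/t 115, so that only ME-B-T/t was above the floor. Tumors had 840, 408 and 533, transgenic glands 114, 142 and 163, and NMRI glands 186, 147 and 88.7. The tumors, with a mean of 593 ± 222, lay above every other array, and the means of the transgenic glands (140 ± 24.9) and NMRI glands (140 ± 48.8) were alike. Of the other probe sets of Vcan, one had 448, 200 and 267 in tumors and at most 68.5 in lines. The third had 110, 177 and 176 in tumors and did not pass the filter.

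Ecrg4 encodes augurin, a small secreted and membrane-tethered protein first described as reduced in esophageal cancer. All 3 lines were below the floor, with 8.06 in ME-A, 10.5 in ME-B and 19.9 in ME-B-T/t. Tumors had 2348, 2070 and 428. Transgenic glands had 159, 57.7 and 537, and NMRI glands 59.4, 57.7 and 95.4. Tumor 3 was thus below transgenic gland 3, and the groups overlapped. The means were 1615 ± 1038 in tumors, 251 ± 253 in transgenic glands and 70.8 ± 21.3 in NMRI glands.

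Pla2g7 encodes the secreted platelet-activating factor acetylhydrolase, a lipoprotein-associated phospholipase made largely by macrophages. ME-A had 138, ME-B 49.4 and ME-B-T/t 77.0. Tumors had 2116, 1590 and 311, a mean of 1339 ± 928. Transgenic glands had 83.4, 151 and 152, and NMRI glands 141, 176 and 137. ME-A lay within the gland range and the other lines below it, and all 3 tumors were above every gland. The 12 macrophage markers, all with a probe set, summed to 3263 in ME-A, 1266 in ME-B and 1051 in ME-B-T/t. They summed to 13219, 15503 and 16616 in tumors 1 to 3, to 10562 to 20926 in transgenic glands and to 10867 to 17568 in NMRI glands. Tumor 3, with the lowest Pla2g7 of the tumors, had the highest sum. Cd14 was the largest part of the NMRI sums, with 4843, 12502 and 9636, against 1727, 4636 and 2318 in tumors. Against NMRI glands, 5 of 10 macrophage markers tested were called higher in tumors (C1qa, C1qb, C1qc, Mpeg1 and Cd68). Cd14 was called lower, where 12.9% and 11.7% of all genes were higher and lower. None was called between tumors and transgenic glands. Aif1, Mpeg1, C1qa, C1qc, Itgam and Marco were below the floor in all 3 lines, and the other 6 markers were above it in at least 1 line. Cd14 had 2635 in ME-A, 540 in ME-B and 241 in ME-B-T/t. Csf1r, Lyz2, Adgre1 and Cd68 were above the floor in every line. The part of macrophages in the Pla2g7 signal was not tested.

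**Figure D3:**
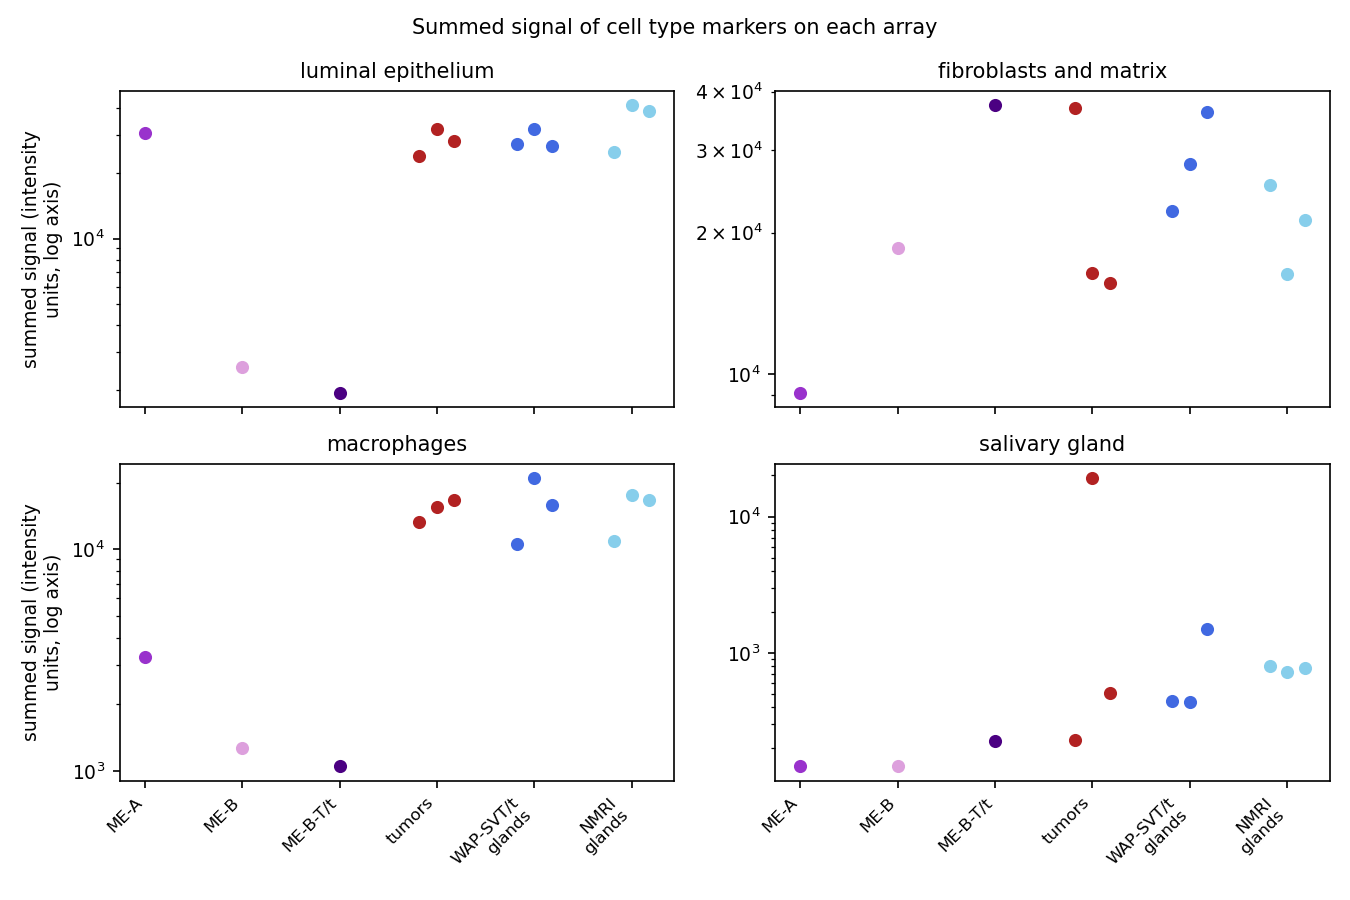
Summed scaled signal, in intensity units on a log axis, of the luminal, fibroblast and matrix, macrophage and salivary gland marker lists on each array. Luminal markers are low in ME-B and ME-B-T/t, macrophage markers are low in all 3 lines, and salivary gland markers reach 19086 in tumor 2.

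The tumors differed among themselves in some of the 8 genes. The highest tumor exceeded the lowest 6.80-fold for Pla2g7 and 5.49-fold for Ecrg4, and tumor 3 was the lowest for both. For Tesc the highest tumor was tumor 3 and the spread was 2.83-fold. The spread was 2.06-fold for Vcan, 1.73-fold for Mgp, 1.67-fold for Prom1, 1.37-fold for Aqp5 and 1.26-fold for Stk26. By its other probe set Stk26 had a spread of 1.91-fold. The 3 genes with the highest signal in tumor 3 were Tesc, Prom1 and Stk26, which are the genes high in ME-A alone among the lines. With each gene read by its brightest probe set, the 4 genes of secreted proteins were highest in tumor 1. The third Vcan probe set, which did not pass the filter, was lowest in tumor 1, at 110 against 177 and 176. Tumor 1 had the most muscle, fat and fibroblast marker signal of the 3 tumors. Whether those tissues contributed to these 4 signals was not tested.

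**Figure D4:**
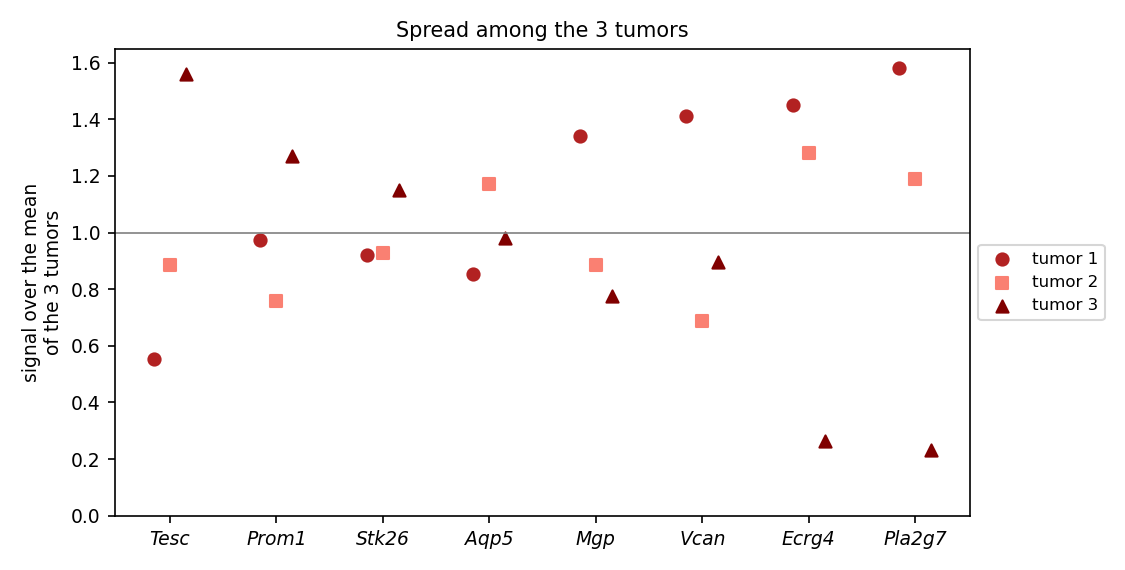
Signal of each tumor divided by the mean of the 3 tumors, for the 8 genes. Tumor 3 stands at 0.232 for Pla2g7 and 0.265 for Ecrg4, and at 1.56 for Tesc.

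The size of the tumor differences, which chose the genes, is given as a description. Of 7899 genes tested, 1.24% were called higher in tumors than in transgenic glands at an adjusted p under 0.05 by limma, and 12.9% higher than in NMRI glands. All 8 genes were in this fit, and 7 were called against transgenic glands, Ecrg4 being the exception, and 8 against NMRI glands. Groups did not overlap for the same 7 and for all 8, against 8.77% and 22.4% of genes. Nothing can be read from these counts. The log2 difference of tumors from transgenic glands was at least 4.41 for Tesc, a bound set by the floor, since all 6 glands lay below it. The bound was 3.55 with the mean over probe sets. The differences were 3.41 ± 0.32 (standard error) for Aqp5, 3.22 ± 0.41 for Prom1, 3.03 ± 0.59 for Pla2g7 and 2.91 ± 0.78 for Ecrg4. These last 4 held ranks 5, 6, 7 and 8 among all rises. Stk26 (2.42 ± 0.24), Vcan (2.04 ± 0.34) and Mgp (1.92 ± 0.36) held ranks 23, 49 and 52. Against NMRI glands the differences ran from 2.08 ± 0.34 for Vcan, rank 236, to 4.21 ± 0.78 for Ecrg4, rank 6, and at least 4.41 for Tesc. Both comparisons share the tumor arrays. Without tumor 2 the differences from transgenic glands of the 7 genes left by the filter ran from 1.99 for Mgp to 3.40 for Prom1. Pla2g7 differed from transgenic glands by 2.50 without tumor 1 and by 3.88 without tumor 3. Markers of other cells moved with these differences. Basal and myoepithelial markers were lower in tumors than in transgenic glands for 7 of 10 tested (median log2 difference -1.94) and than in NMRI glands for 9 of 10 (-1.88), where 1.71% and 11.7% of all genes were lower. Their sums were 2498 to 5526 in tumors, 10653 to 13871 in transgenic glands and 10418 to 16879 in NMRI glands. Adipocyte markers were lower for 6 of 7 tested in both comparisons (-3.23 and -2.88), with sums of 1835 to 13301 in tumors, 27188 to 48996 in transgenic glands and 28631 to 35967 in NMRI glands. Cnn1 and Oxtr of the first list and Lep and Pparg of the second were below the floor in all tumors. The part of these cell types in the 8 differences was not tested.

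The transgenic and NMRI glands were compared to see whether the genes already differed in lactating glands that carry the transgene. Stk26 was higher in transgenic glands, at 379, 279 and 329, against 138, 183 and 212 in NMRI glands. The groups did not overlap, and the means of 329 ± 50.0 and 178 ± 37.3 gave a log2 difference of 0.90 ± 0.24, or 1.87-fold (adjusted p = 0.0403, limma). It was the only one of the 8 genes called, where 10.1% of 7899 genes were called in either direction and 6.08% as higher, and 16.3% were higher with no overlap. The other Stk26 probe set did not differ beyond its error: it had 71.8, 68.8 and 52.6 in transgenic glands and 24.8, 67.0 and 55.7 in NMRI glands, near the floor (0.12 ± 0.30, adjusted p = 0.847). The call did not withstand every array being left out. The adjusted p was 0.123 without transgenic gland 1, 0.0508 without transgenic gland 2 and 0.0699 without transgenic gland 3, 0.168 without NMRI gland 1, 0.101 without NMRI gland 2, and 0.0537 and 0.0524 without tumors 1 and 2, which share in the estimate of the spread. Over 21 alternatives it lay between 0.0311 and 0.168, and was under the threshold in 9. Transgenic glands were part of the comparison that chose the genes.

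For the other genes the gland groups were not told apart. Ecrg4 was 1.31 ± 0.78 higher on the log2 scale in transgenic glands (adjusted p = 0.316), with transgenic gland 3 at 537 and the other glands of that group at 159 and 57.7. Its difference was 0.48 without transgenic gland 3 and 2.09 without transgenic gland 2. Mgp differed by 0.75 ± 0.36 (adjusted p = 0.213), with 0.45 without transgenic gland 3 and 0.42 without NMRI gland 2, and Prom1 by 0.50 ± 0.41 (adjusted p = 0.48). Both were highest in transgenic gland 3, which had a Gapdh ratio of 22.5. Its summed skeletal muscle markers were 24923, against 1371 and 1518 in transgenic glands 1 and 2. NMRI gland 1 had a muscle sum of 24968, with 40.2 for Prom1 and 571 for Mgp. NMRI gland 3 had a Gapdh ratio of 40.3, with 128 for Prom1 and 553 for Mgp. The part of RNA quality or muscle in the Mgp and Prom1 signals was not tested. Aqp5 (0.12 ± 0.32), Vcan (0.04 ± 0.34) and Pla2g7 (-0.27 ± 0.59) had adjusted p values of 0.854, 0.953 and 0.811. Tesc was below the floor in all 6 glands. The median difference of the 8 genes was 0.31, against 0.01 for all genes tested. Macrophage markers were called higher in transgenic glands for 3 of 10 tested (Aif1, Mpeg1 and C1qb), where 6.08% of all genes were. Pla2g7 had 129 ± 39.4 in transgenic and 151 ± 21.3 in NMRI glands. The part of macrophages in these Pla2g7 signals was not tested.

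**Figure D5:**
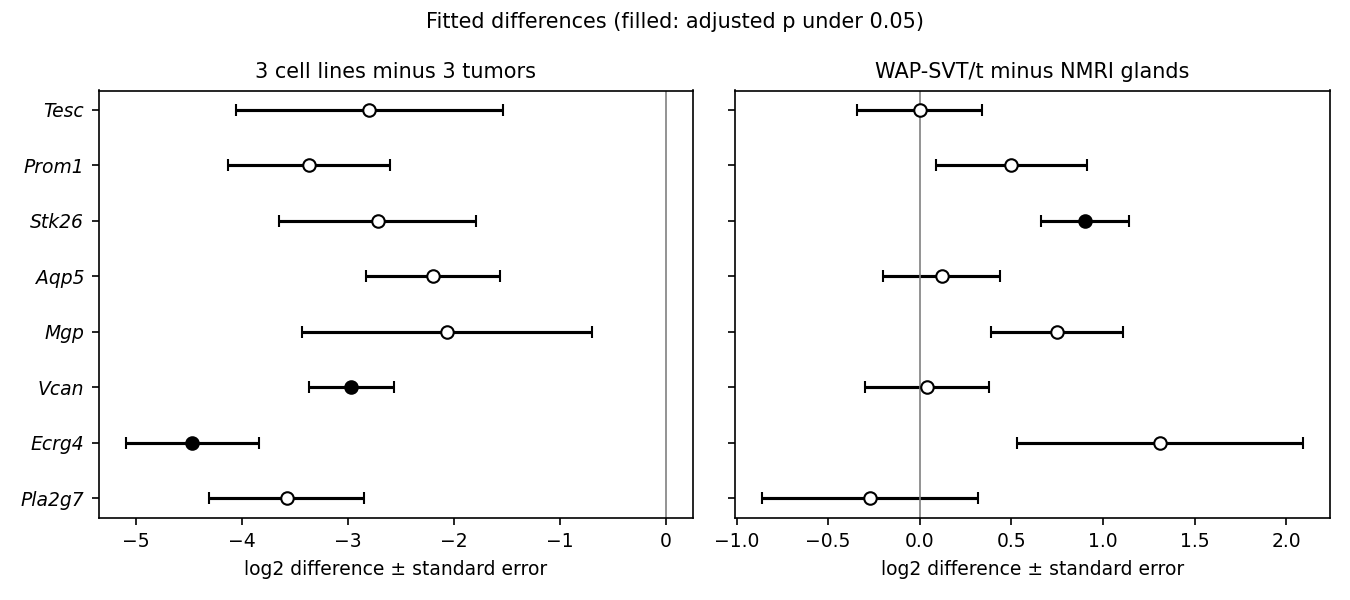
Fitted log2 differences with standard errors of the 8 genes, left for 3 cell lines minus 3 tumors and right for WAP-SVT/t minus NMRI glands; filled points have an adjusted p under 0.05 (limma). All 8 genes lie below 0 on the left, and Vcan and Ecrg4 are filled; on the right only Stk26 is filled.

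Taken as a class of 3, the lines were compared with the tumors, whose signals had chosen the genes. The spread within this class is that between different lines. Ecrg4 was at least 22.2-fold lower in lines than in tumors (log2 difference -4.47 ± 0.63, adjusted p = 0.0147, limma) and Vcan, with ME-A and ME-B below the floor, at least 7.83-fold lower (-2.97 ± 0.40, adjusted p = 0.0129). Of 7346 genes tested, 2.3% were called and 1.88% were lower in lines. Pla2g7, Vcan and Ecrg4 had no line above the filter's signal of 139.9 and passed only through the tumors, so that high tumor signals were a condition of their being chosen and tested, and the 2 calls are no independent support. A second probe set of Vcan was also lower in lines (-2.24 ± 0.35, adjusted p = 0.022). Both calls ended without ME-B, with adjusted p values of 0.0712 for Ecrg4 and 0.0654 for Vcan, and with no filter, at 0.113 and 0.0946. Ecrg4 also missed the threshold without ME-B-T/t (0.0577). Leaving out any tumor took both genes, and Pla2g7, below the filter.

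For the other 6 genes a call depended on single lines or was not made. Without ME-A, Tesc had an adjusted p of 0.000803 (log2 difference -4.41), Prom1 of 0.000241 (-4.33), Stk26 of 0.000556 (-3.89) and Pla2g7 of 0.0141 (-3.93). With ME-A these were 0.322 (-2.80), 0.084 (-3.37), 0.211 (-2.72) and 0.0611 (-3.58). Without ME-A the lines left were below the floor for Tesc and Prom1, whose differences are then bounds and which passed the filter only through the tumors. All these values rest on the tumor signals that chose the genes and are no independent support. Without ME-B, Aqp5 had 0.0381 (-2.92), and 0.151 (-2.20) with it. Mgp differed by -2.07 ± 1.37 (adjusted p = 0.487), and by -0.28 without ME-A, -2.72 without ME-B and -3.19 without ME-B-T/t. Lines and tumors did not overlap for 6 of the 8 genes, with Tesc and Mgp the exceptions, where 12.3% of all genes were lower in lines with no overlap. Macrophage markers were lower in lines for 9 of 10 tested, and fibroblast and matrix markers for 4 of 14 (Col1a2, Lum, Thy1 and Dcn). The part of these cell types in the 8 differences was not tested.

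ME-B was also set against both other lines, as the labels call it a revertant. No gene of the 8 differed 4-fold or more in the same direction from ME-A and from ME-B-T/t, as 42 of 8187 genes did (0.513%). For Tesc and Prom1, ME-B and ME-B-T/t were both below the floor. Stk26 was 1.99-fold higher in ME-B-T/t than in ME-B and Mgp 1.92-fold higher, while Aqp5 was 6.95-fold higher in ME-B. With 1 array per line none of these could be tested.

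Relatives and partners of the 8 genes were taken from 7 lists drawn up with earlier results of these data known. Of 61 such genes tested, 0 were called higher in tumors than in transgenic glands and 1 lower, where 1.24% and 1.71% of all genes were (limma; 12 had an unadjusted p under 0.05). The one was Elf5, a transcription factor of luminal progenitors and milk-producing cells, with 1494, 1900 and 2835 in tumors, against 5581, 3471 and 6190 in transgenic glands (2.46-fold lower, adjusted p = 0.0291). Against NMRI glands, 10 were higher and 10 lower, as 12.9% and 11.7% of all genes were. Among the higher were Stk24, a kinase of the same group as Stk26, 1.81-fold (adjusted p = 0.0141), its partner Pdcd10, 1.86-fold (adjusted p = 0.0321), and Prom2, the relative of Prom1, 2.73-fold (adjusted p = 0.0171). Prom2 had 195, 195 and 141 in tumors and 68.6, 63.8 and 60.2 in NMRI glands. The same lists held genes called lower. Cab39l, a scaffold protein that binds kinases of this kind, was 1.86-fold lower (adjusted p = 0.0186), with 249, 224 and 271 in tumors and 423, 458 and 500 in NMRI glands. In the prominin list Elf5 was 3.81-fold lower (adjusted p = 0.000537), Cd24a 2.51-fold (adjusted p = 0.00538) and Cd14 3.16-fold (adjusted p = 0.0248), and both aquaporins tested, Aqp3 and Aqp1, were lower. Cell lines and tumors differed in 0 of 56 tested (limma; 8 at an unadjusted p under 0.05), where 2.3% of all genes were called.

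Between the gland groups, 1 of 61 list genes was higher in transgenic glands and 6 were lower, where 6.08% and 4.03% of all genes were. The lower ones were 1 of 2 aquaporins tested, 1 of 7 partners and relatives of Tesc, 1 of 10 prominin and luminal progenitor genes, 2 of 9 phospholipase genes and 1 of 14 genes of versican and hyaluronan. The aquaporin Aqp3, which conducts water and glycerol, was lower, with 83.9, 64.1 and 77.8 in transgenic glands, against 2037, 323 and 392 in NMRI glands (8.51-fold, adjusted p = 0.00518, limma). Cib1, a calcium-binding relative of Tesc, was 2.54-fold lower (adjusted p = 0.0152). Both phospholipases called were lower, Pla2g15, a lysosomal enzyme, 2.90-fold (adjusted p = 0.00657) and Pla2g6, which needs no calcium, 2.07-fold (adjusted p = 0.0271). Lcn2, a secreted protein that binds bacterial iron carriers, was 1.91-fold lower (adjusted p = 0.0409). Among genes of versican and hyaluronan, Tlr2, a receptor reported to bind versican, was 2.66-fold lower (adjusted p = 0.0134). Hmmr, a hyaluronan receptor that also acts on the mitotic spindle, was 5.22-fold higher, at 828, 666 and 808 in transgenic glands and 161, 129 and 151 in NMRI glands (adjusted p = 6.61e-05). Of the 13 genes of the Stk26 complex and the 6 Gla protein and mineralization genes tested, none was called, and 3 and 2 had an unadjusted p under 0.05. Median log2 differences were 0.27 in the Stk26 list and 0.19 in both the Gla protein and the versican list. They were -1.68 for the aquaporins, -0.38 for the phospholipase list, -0.37 for the prominin list and -0.05 for the Tesc list, against 0.01 for all genes.

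The genes whose log2 signals were most like those of each member were found over the 12 arrays among 8179 genes. The points share arrays of the same group, so the coefficients describe group patterns. Car12, a carbonic anhydrase of cell surfaces, was the closest to both Stk26 (Pearson r = 0.98, Spearman rho = 0.95) and Prom1 (0.95 and 0.91). It had 587 in ME-A, 80.2 in ME-B and 70.5 in ME-B-T/t, a mean of 741 in tumors, 176 in transgenic glands and 89.1 in NMRI glands. Scrg1 was the closest to Tesc (r = 0.96, rho = 0.84), with 233 in ME-A and the other lines at the floor. For Mgp it was Pcdh18, a protocadherin, at the floor in ME-A, 244 in ME-B and 488 in ME-B-T/t (0.93 and 0.88). Mmp13, a collagenase, was the closest to Pla2g7 (0.95 and 0.82), Ak4 to Aqp5 (0.94 and 0.91), Hebp2 to Ecrg4 (0.92 and 0.75) and Etnk1 to Vcan (0.91 and 0.79).

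The mean of the 8 standardised profiles was most like Col9a2 (r = 0.97, rho = 0.76), Hs3st1 (0.95 and 0.74) and Comp (0.95 and 0.68). Col9a2 and Comp are matrix genes known from cartilage. Col9a2 had 374, 243 and 180 in tumors and was below the floor in all 3 lines and all 6 glands. Comp had 556, 764 and 212 in tumors, against 39.9, 73.1 and 59.9 in transgenic glands and 30.8, 56.6 and 38.9 in NMRI glands. Of 16 cartilage and bone markers 13 had a probe set, and these 2 were the ones called higher in tumors than in transgenic glands among 7 tested. They were named for their likeness to genes chosen by tumor signals, so that count is a description. Col9a1 of the same list was lower in tumors than in NMRI glands, at 3242, 623 and 1462 against 6765, 5150 and 7124 (4.38-fold, adjusted p = 0.0419, limma). The list summed to 791 to 5893 in lines, 2735 to 5549 in tumors, 1171 to 3033 in transgenic glands and 6145 to 7833 in NMRI glands. Col9a1 made up most of the NMRI sums, and Cnmd, with 5124, most of the sum of ME-A. Matn1, Chad and Ibsp were below the floor in tumors and in both gland groups.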

How the data were processed

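The deposited table held probe set signals in intensity units, made by the authors with MAS5 per the submitters' processing notes. The MAS5 version, its background step and its scaling goal are not stated in labels or headers, and raw scans were not used here. Deposited signals had trimmed means within 1.19-fold of each other. The 12 arrays were multiplied up or down to their average trimmed mean (2% off each end), after 64 control probe sets were left out. A floor at 57.47, the 30th percentile over all arrays, was applied before log2 values were taken. No pair of arrays was identical.

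Of the other probe sets, the platform table gave 20380 exactly 1 gene, 691 several genes and 1555 none, and the last 2 kinds were left out. A gene was represented by its brightest probe set on the log2 scale, and was tested if 3 or more arrays exceeded 139.9, the median over all arrays. On single arrays 67.7% to 72.6% of probe sets lay above the floor. The floor is a percentile of these same signals, so that share measures neither background nor precision.

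The 9 tissue arrays were fitted as 3 groups, and the 3 lines against the 3 tumors as 2 classes, with limma 3.58.1 in R 4.3.3 (intensity trend, two-sided, Benjamini-Hochberg over all genes tested, threshold 0.05). Python 3.11.15 and matplotlib 3.10.9 drew the figures. The code was tested on simulated data. Alternatives changed the scaling, floor, filter, probe set rule, variance model, replicate block and arrays used.

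Same-numbered transgenic and NMRI glands deviated together from their group means (r = 0.22, 0.37 and 0.37). Same-numbered tumors and transgenic glands (r = -0.17, 0.33 and -0.10) did not all do so, nor did tumors and NMRI glands (r = 0.01, 0.16 and -0.10). Gapdh ratios ranked the gland numbers alike in both gland groups. Transgenic glands 1 to 3 had 10.7, 2.49 and 22.5, and NMRI glands 1 to 3 had 12.9, 2.28 and 40.3. The part of RNA quality in the shared deviations was not tested. The labels do not say what a number shares. The main fits therefore had no block for it and did not pair the glands, and the replicate block was run as an alternative.

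The 8 genes, the 7 lists of relatives and the 10 marker lists were chosen with earlier results of these data known. Named genes were the 8 genes with all probe sets, up to 3 list genes with the smallest p per list and comparison (transgenic against NMRI glands, lines against tumors), and those most like the 8 genes in profile. Elf5, Stk24, Pdcd10, Prom2, Cab39l, Cd24a, Cd14, Aqp1 and the marker genes were named after their values were seen.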

Additional observations from a re-analysis of the deposited data

How the results depend on the processing

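The number of the 8 genes kept by each line was the same or nearly the same under all 5 alternatives tried. Which genes made up each number was not compared. For transgenic against NMRI glands, genes with small differences changed sign: Vcan to -0.13 with the mean over probe sets, -0.38 without both glands numbered 3, -0.08 without transgenic gland 3 and -0.26 without NMRI gland 3, Pla2g7 to 0.013 without transgenic gland 1, and Aqp5 to -0.14 without transgenic gland 2 and -0.07 without NMRI gland 3. With 1 array left out, Aqp5 ranged from -0.14 to 0.46, Pla2g7 from -0.42 to 0.013 and Vcan from -0.26 to 0.28. None of these was called in any setting. Stk26 kept its direction in 21 alternatives and missed the threshold in 12 of them, among them quantile normalization (adjusted p = 0.0593), the mean over probe sets (0.162), both glands numbered 3 left out (0.0686) and only 6 arrays fitted (0.063). The cause was not tested. With the replicate block its adjusted p was 0.042 over 9 arrays and 0.0535 over 6. The replicate block gave 930 calls between the gland groups, 284 for tumors against transgenic glands and 2149 for tumors against NMRI glands, and changed no other call of the 8 genes. No paired analysis was possible because lines and tumors share no numbers in that comparison.

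Calls over all genes for tumors against transgenic glands numbered 71 with no filter, 93 without both glands numbered 3 and 124 with only 6 arrays, against 233. For lines against tumors they numbered 91 with no filter and 261 with every probe set on its own, against 169. With 1 array left out, limma made 394 to 807 calls between the gland groups, 69 to 230 for tumors against transgenic glands, 1226 to 2273 for tumors against NMRI glands and 0 to 786 for lines against tumors. The last numbered 0 without tumor 1 (729 at an unadjusted p under 0.05), 1 without tumor 2, 3 without tumor 3, 786 without ME-A, 61 without ME-B and 85 without ME-B-T/t. Tesc differences of tumors from transgenic glands depended on the floor, with 6.48 at the pooled 10th percentile.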
